A study of Mus musculus with 9 samples.

Results

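The integrated stress response genes described here were 10 genes picked by symbol from a deposited table of 31167 genes: Atf4, Atf3, Ddit3, Ppp1r15a, Trib3, Chac1, Sesn2, Asns, Phgdh and Psat1. The set was chosen because Atf3 and Ddit3 were higher in EGR1OV and lower after H/R, so the values of those 2 genes are given as a description with no test. The other 8 genes were tested. RNA was sequenced from primary renal tubular epithelial cells (TECs) of C57BL/6 mouse kidney, in 3 groups of 3 libraries. H/R cells spent 6 h in glucose-free medium at 1.0% oxygen and then 18 h in complete medium under normal culture conditions, a culture model of ischemia and reperfusion. EGR1OV cells received a plasmid in which the CMV promoter drives Egr1, a zinc finger transcription factor, and their labels name no H/R exposure. Sham cells were the controls of both. All groups shared the C57BL/6 background and the primary culture, and no allele or age is used here. The study describes Sham cells as untreated and no empty-plasmid group was analysed here, so an effect of plasmid DNA or transfection and an effect of Egr1 cannot be told apart. Nothing in the labels says that the 3 libraries of a group came from separate animals or cultures. P-values therefore measure only the spread between these libraries, which may be technical.

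The integrated stress response starts when a kinase phosphorylates the translation factor eIF2 alpha, which lowers general protein synthesis while translation of the mRNA of Atf4 goes up. Atf4 protein then activates genes for amino acid synthesis and uptake, for further transcription factors such as Atf3 and Ddit3 (CHOP), and for inhibitors that switch the response off. Each of the 4 kinases answers to its own kind of stress, among them unfolded protein in the endoplasmic reticulum, double-stranded RNA, lack of amino acids and lack of heme. In the kidney the response is known from tubule injury, where CHOP is linked to cell death. Because Atf4 is controlled largely through translation, its mRNA level does not report the level of its protein.

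Egr1 itself checked the labels: EGR1OV libraries averaged 42.7 ± 2.84 FPKM, 6.66 times the Sham mean of 6.40 ± 0.443, and H/R libraries 7.88 ± 0.600 (SD, n = 3). FPKM is a level per kilobase of exon, scaled to the library, and the libraries held 16183617 to 18384022 reads by the depth recovered from the values. Epithelial keratins and Cdh1 were present, and 11 of 16 tubule marker genes averaged at least 1 FPKM in Sham. Of the markers that define tubule segments, Umod, of the thick ascending limb, was listed at 0 in all 9 libraries, and Slc34a1, of the proximal tubule, reached at most 0.04 FPKM. The proximal tubule genes Lrp2 and Aqp1 were present in Sham, at 3.51 to 3.67 and 1.23 to 1.43 FPKM, and both were called lower in EGR1OV by the thresholds given below, at means of 1.22 and 0.368 FPKM. The summed tubule markers lay at 2013 to 2047 FPKM for Sham, 1863 to 1946 for H/R and 1330 to 1442 for EGR1OV. Krt8 and Krt18 weighed most in these sums, with means of 1014 and 685 FPKM in Sham and 618 and 412 in EGR1OV. Of 11 tested tubule markers 1 was called higher in EGR1OV, Epcam, and 4 lower (9.87% and 6.51% of all genes). Cdh1 averaged 86.3 FPKM in Sham and 101.5 in EGR1OV. For 12 leukocyte markers the sums were 154 to 160.1, 130.4 to 140.4 and 28.1 to 33.4 FPKM, and all 9 of those tested were called lower in EGR1OV (6.51% of all genes), with 2 called lower in H/R (2.65%). Summed interferon-induced genes lay at 17.4 to 24.8 FPKM for Sham, 20.04 to 20.5 for H/R and 2540 to 2596 for EGR1OV, and 10 of 10 were called higher in EGR1OV (9.87% of all genes). Endothelial markers summed to 11.1 to 11.98, 11.7 to 12.4 and 8.29 to 8.68 FPKM, and fibroblast markers to 32.8 to 34.5, 39.3 to 40.6 and 37.9 to 42.9. These sums move with the group comparisons below, and their part in the results on the stress response genes was not tested. In bulk RNA, fewer cells of a type and less RNA per cell cannot be told apart.

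Differences below are on the log2(FPKM + 1) scale from a single limma fit, with adjusted p over the 13985 genes whose mean reached 0.5 FPKM. All 10 stress response genes passed that filter. A call needed an adjusted p under 0.05 together with a size of 1.3-fold or more (EGR1OV against Sham or H/R) or 1.2-fold or more (H/R against Sham). In EGR1OV against Sham 1 of the 8 tested genes was called higher, Trib3, and 0 lower, where 9.87% of all genes were called higher and 6.51% lower. In H/R against Sham 5 were called lower, Trib3, Chac1, Sesn2, Phgdh and Psat1, and 0 higher, against 2.65% of all genes lower and 1.6% higher. In EGR1OV against H/R 3 were called higher, Trib3, Ppp1r15a and Sesn2, and 0 lower, against 11.9% of all genes higher and 6.94% lower. The median difference of the 8 genes was -0.007, -0.30 and 0.25 in the 3 comparisons in that order, and over all genes it was 0.017, -0.03 and 0.055. The 3 comparisons share libraries, so they are not independent of each other. The balance of calls over all genes moved with scaling: 60.3%, 37.7% and 63.2% of calls were higher as deposited, 54.9%, 58.2% and 51% after median-ratio scaling, and 45.7%, 56.1% and 42.5% after quantile normalization.

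**Figure D1:**
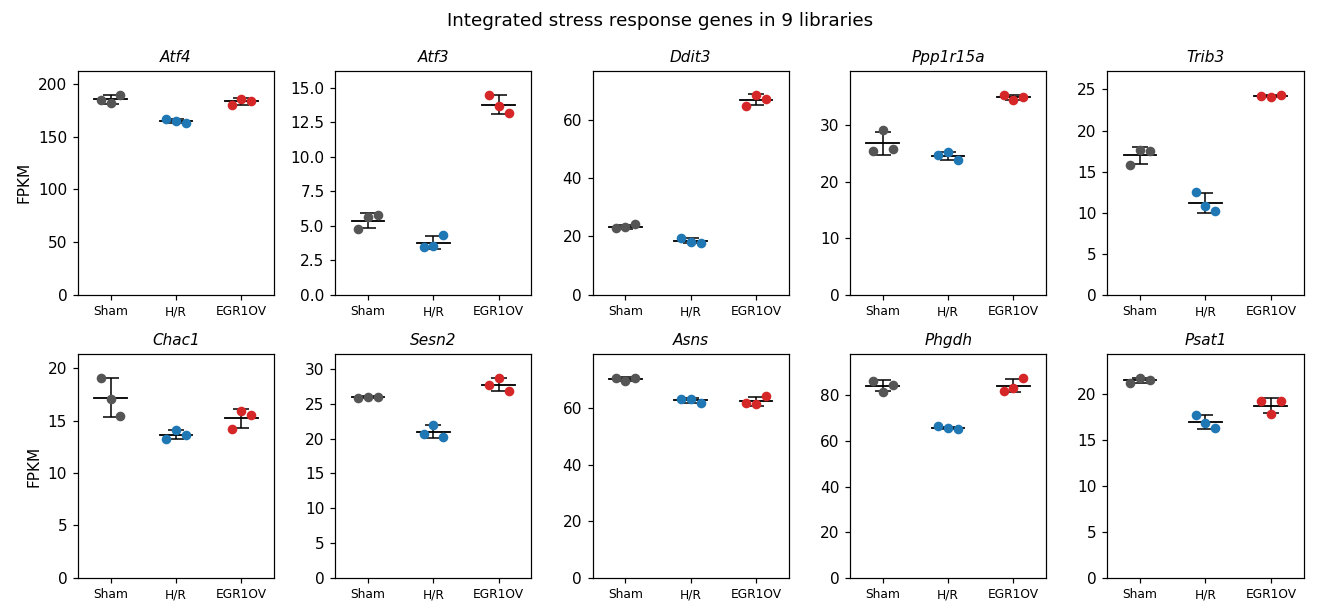
FPKM of the 10 stress response genes in each of the 9 libraries, 1 panel per gene, with group on the horizontal axis and FPKM from 0 on the vertical axis. Points are libraries, the long bar is the mean and the whiskers are the SD (n = 3). The EGR1OV points of Atf3 and Ddit3 lie far above the other 2 groups. In every panel the H/R points lie below all Sham points, by little for Ppp1r15a. Atf3 and Ddit3 were chosen for being lower after H/R, and the share of all genes with such a separation was not computed.

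Ranked by level in Sham, Atf4 came first at 186 FPKM, followed by Phgdh at 84.1 and Asns at 70.3. Ppp1r15a and Sesn2 came next at 26.8 and 25.96 FPKM, with ranges that overlapped. Ddit3 stood at 23.3, Psat1 at 21.4, Chac1 at 17.2, Trib3 at 16.98 and Atf3 at 5.36 FPKM, and of these neighbours only Chac1 and Trib3 overlapped. The order after H/R was the same and no neighbours overlapped. In EGR1OV Ddit3 moved up from 6th to 3rd place, above Asns, and Trib3 from 9th to 7th, while Atf3 stayed last with a range that overlapped that of Chac1.

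The transcription factors differed from one another. Atf4 (ENSMUSG00000042406, chr15:80255184-80257540 on the plus strand, GRCm38), the factor at the centre of the response, had Sham levels of 185.5, 181.8 and 190.1 FPKM. The EGR1OV libraries held 180.2, 186.5 and 184.6 FPKM, which overlapped Sham, and the difference was -0.016 ± 0.025 (SE, adjusted p = 0.641, limma). The H/R levels of 167.4, 164.7 and 163.1 FPKM were each below every Sham library. That difference was -0.17 ± 0.025 (SE, adjusted p = 0.00438, limma), under the 1.2-fold threshold, so Atf4 was not called. With 6387 to 7475 reads per library Atf4 was the most deeply read of the 10 genes.

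Atf3 (ENSMUSG00000026628, chr1:191170296-191218039 on the minus strand) encodes a stress-induced factor that acts mostly as a repressor. Its levels were 4.74, 5.59 and 5.74 FPKM in Sham and 14.5, 13.6 and 13.1 FPKM in EGR1OV. The group means were 5.36 ± 0.537 and 13.8 ± 0.682 FPKM (SD, n = 3), a ratio of 2.57 and a difference of 1.22 on the log2 scale. After H/R the levels were 3.47, 3.54 and 4.29 FPKM, a mean ratio to Sham of 0.703 and a difference of -0.42. No H/R library reached the lowest Sham library. These values rest on 121 to 518 reads per library.

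Ddit3 (ENSMUSG00000025408, chr10:127290774-127296288 on the plus strand) encodes CHOP, a C/EBP family factor linked to cell death under lasting stress. It was at 22.8, 23.1 and 24.1 FPKM in Sham and at 64.7, 68.5 and 67.2 FPKM in EGR1OV. The means of 23.3 ± 0.693 and 66.8 ± 1.94 FPKM (SD, n = 3) gave a ratio of 2.87 and a log2 difference of 1.48. The H/R levels were 19.4, 18.1 and 17.8 FPKM, a ratio of 0.792 and a log2 difference of -0.32. The 3 groups did not overlap. Between EGR1OV and H/R the log2 difference was 1.63 for Atf3 and 1.80 for Ddit3. The read counts behind Ddit3 were 538 to 1937 per library.

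The 250 bases before the RefSeq transcript start of both factors are shown because they hold matches to different motifs. The sequence is GRCm38.p6, read 5′ to 3′ on the strand of the gene, chr1:191183334-191183583 (minus) for Atf3 and chr10:127290543-127290792 (plus) for Ddit3, and the last base is next to the start. Capitals mark in Atf3 a match to the C/EBP-ATF response element (CARE, TGATGNAA, on the minus strand of the gene) and in Ddit3 a match to the AP-1 motif (TGANTCA).
Atf3: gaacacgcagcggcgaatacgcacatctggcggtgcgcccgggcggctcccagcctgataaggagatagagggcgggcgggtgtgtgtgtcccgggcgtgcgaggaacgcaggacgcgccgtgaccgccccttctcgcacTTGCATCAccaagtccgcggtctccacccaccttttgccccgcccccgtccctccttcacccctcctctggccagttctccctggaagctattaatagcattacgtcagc
Ddit3: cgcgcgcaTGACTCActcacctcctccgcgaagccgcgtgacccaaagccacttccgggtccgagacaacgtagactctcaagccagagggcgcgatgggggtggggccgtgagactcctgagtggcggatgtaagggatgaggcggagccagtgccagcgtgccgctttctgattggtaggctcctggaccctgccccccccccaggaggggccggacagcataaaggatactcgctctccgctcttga
The Atf3 match lies at positions -110 to -103 from the start, and the Ddit3 match at -242 to -236. The Atf3 start used by RefSeq here is inside the annotated gene and not at its outer end.

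**Figure D2:**
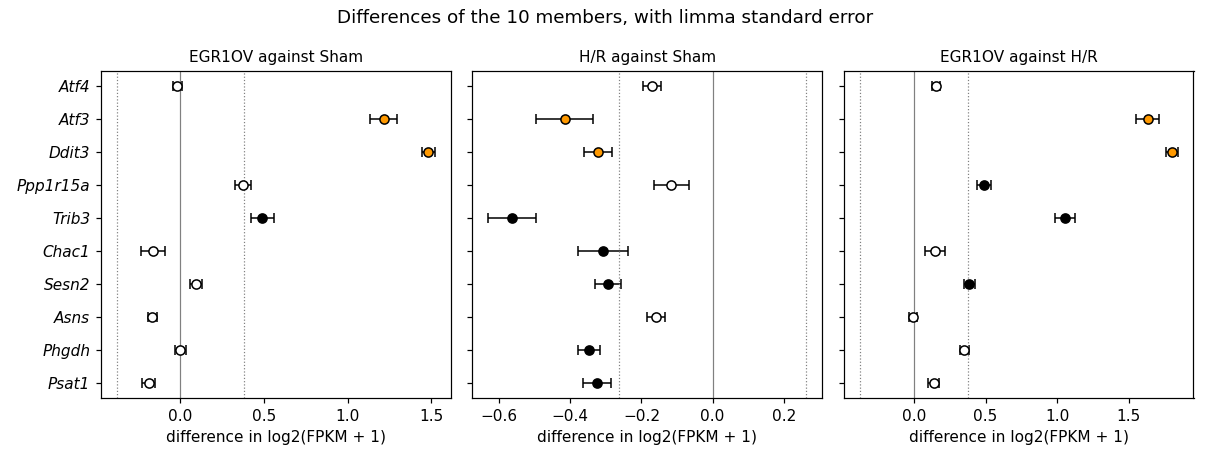
Difference in log2(FPKM + 1) of the 10 genes for EGR1OV against Sham, H/R against Sham and EGR1OV against H/R, with the limma standard error as whiskers. Filled black points were called, open points were not, and orange points are Atf3 and Ddit3, which were not tested. Dotted lines mark the fold threshold of each comparison. In the H/R panel the 8 tested points lie left of 0, and Atf3 and Ddit3 lie there by the choice of the set. The median over all genes was -0.03 in that comparison, and the share of all genes left of 0 was not computed.

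Among the genes that feed back on the response or limit growth, Trib3 was called in every comparison. Trib3 (ENSMUSG00000032715, chr2:152337422-152344032, minus) is a pseudokinase that binds and restrains Atf4 and CHOP. It was at 15.8, 17.6 and 17.6 FPKM in Sham, 12.5, 10.8 and 10.2 under H/R and 24.2, 24.1 and 24.4 under EGR1OV, with no overlap between any 2 groups. Trib3 rose in EGR1OV by 0.49 ± 0.0667 (SE, adjusted p = 0.000273, limma), a mean ratio of 1.43. It fell after H/R by 0.56 (adjusted p = 0.00171, limma), to 0.659 of the Sham mean. The EGR1OV mean was 2.17 times the H/R mean, a log2 difference of 1.06 (adjusted p = 1.45e-06, limma).

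Ppp1r15a (ENSMUSG00000040435, chr7:45522916-45526268, minus) encodes GADD34, which brings phosphatase 1 to eIF2 alpha and so ends the response. It was at 25.4, 29.2 and 25.8 FPKM in Sham and at 35.4, 34.5 and 35.0 FPKM in EGR1OV, which did not overlap. The difference of 0.38 ± 0.049 (SE, adjusted p = 0.000214, limma) was just under the fold threshold on this scale, although the ratio of the means was 1.31, so Ppp1r15a was not called against Sham. It was called with a pseudocount of 0.1, with voom on recovered reads, and without Sham replicate 2 or EGR1OV replicate 2 (0.44 and 0.39 without them). In H/R its values were 24.7, 25.2 and 23.9 FPKM, with a difference from Sham of -0.12 (adjusted p = 0.16, limma). Against H/R, Ppp1r15a was higher in EGR1OV by 0.49 (adjusted p = 3.24e-05, limma).

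Chac1 (ENSMUSG00000027313, chr2:119351229-119354381, plus), an enzyme that breaks down glutathione, was at 19.1, 17.1 and 15.4 FPKM in Sham. The H/R libraries held 13.2, 14.1 and 13.6 FPKM and the EGR1OV libraries 14.2, 15.9 and 15.5. Chac1 fell after H/R by 0.31 (adjusted p = 0.0249, limma), while EGR1OV overlapped Sham and differed from it by -0.16 ± 0.0701 (SE, adjusted p = 0.0875). The H/R call was lost without the filter on low values (adjusted p = 0.0683) and with the replicate number as a block (adjusted p = 0.0509). It was also lost without Sham replicate 1 or 2 or H/R replicate 1 or 3, where the adjusted p was 0.0582, 0.0652, 0.0699 and 0.0698 in that order.

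Sesn2 (ENSMUSG00000028893, chr4:132492032-132510501, minus), a leucine sensor that restrains the growth kinase mTORC1, was at 25.8, 26.1 and 26.04 FPKM in Sham. It fell after H/R to 20.6, 22.02 and 20.3 FPKM, a difference of -0.295 on the log2 scale (adjusted p = 0.00209, limma). In EGR1OV it stood at 27.7, 28.7 and 26.9 FPKM, above every Sham library but by only 0.09 ± 0.0363 (SE, adjusted p = 0.0644). Sesn2 was higher in EGR1OV than in H/R by 0.39 (adjusted p = 2.14e-05, limma), just past the threshold. The H/R call was lost after median-ratio scaling (-0.26). The call against H/R was lost after median-ratio scaling (0.32), after quantile normalization (0.28) and without H/R replicate 1 or 3 or EGR1OV replicate 2 (0.38, 0.37 and 0.36).

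The windows of Ppp1r15a (chr7:45526269-45526518, minus), Chac1 (chr2:119350992-119351241, plus) and Trib3 (chr2:152344061-152344310, minus) are shown for the motifs that they hold or lack. Capitals mark a cyclic AMP response element (CRE, TGACGTCA) in Ppp1r15a and a CARE match in Chac1. The Trib3 window held no match to any motif searched, but the first 40 transcribed bases after it were not found in a GENCODE transcript.
Ppp1r15a: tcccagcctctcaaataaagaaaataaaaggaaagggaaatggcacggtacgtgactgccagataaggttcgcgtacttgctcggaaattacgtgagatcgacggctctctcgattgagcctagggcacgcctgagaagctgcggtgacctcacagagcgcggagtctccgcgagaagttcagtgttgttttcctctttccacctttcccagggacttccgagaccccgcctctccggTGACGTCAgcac
Chac1: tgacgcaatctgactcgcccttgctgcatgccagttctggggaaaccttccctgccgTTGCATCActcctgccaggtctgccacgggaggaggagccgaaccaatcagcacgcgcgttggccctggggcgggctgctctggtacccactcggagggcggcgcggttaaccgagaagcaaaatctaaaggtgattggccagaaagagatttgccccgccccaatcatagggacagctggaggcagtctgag
Trib3: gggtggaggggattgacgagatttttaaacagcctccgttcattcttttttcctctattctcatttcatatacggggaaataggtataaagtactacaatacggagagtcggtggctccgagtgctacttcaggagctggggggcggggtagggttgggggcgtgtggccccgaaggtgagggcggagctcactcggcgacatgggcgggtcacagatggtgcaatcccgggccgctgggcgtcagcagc
The CRE lies at positions -12 to -5 from the start of Ppp1r15a, and the CARE match at -193 to -186 from that of Chac1.

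The 3 genes of amino acid synthesis did not rise in EGR1OV. All 3 were lower after H/R, and 2 of them were called. Phgdh (ENSMUSG00000053398, chr3:98313170-98339990, minus), which catalyses the first step of serine synthesis, was at 86.2, 81.4 and 84.6 FPKM in Sham and 66.3, 65.8 and 65.3 FPKM in H/R. It fell by 0.35 (adjusted p = 0.000453, limma). In EGR1OV, at 82.0, 83.1 and 87.6 FPKM, Phgdh overlapped Sham and differed by 0.002 ± 0.0314 (SE, adjusted p = 0.961). Its difference between EGR1OV and H/R was 0.35 (adjusted p = 1.56e-05, limma), below the fold threshold.

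Psat1 (ENSMUSG00000024640, chr19:15904678-15947337, minus), the next enzyme of the same path, was at 21.1, 21.7 and 21.5 FPKM in Sham and fell after H/R to 17.7, 16.8 and 16.3 FPKM. That difference was -0.33 on the log2 scale (adjusted p = 0.00203, limma). In EGR1OV the values were 19.2, 17.8 and 19.1 FPKM, each below every Sham library. The difference of -0.19 ± 0.0399 (SE, adjusted p = 0.00398, limma) was under the fold threshold.

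Asns (ENSMUSG00000029752, chr6:7675169-7693254, minus) makes asparagine. It was at 70.7, 69.6 and 70.6 FPKM in Sham, 63.3, 63.3 and 61.9 under H/R and 61.9, 61.4 and 64.4 under EGR1OV. Both groups lay below Sham without overlap, by 0.16 and 0.17 on the log2 scale (adjusted p = 0.0058 for H/R and 0.000522 for EGR1OV, limma), and neither difference reached its fold threshold. EGR1OV and H/R overlapped and differed by -0.007 (adjusted p = 0.838). The 250 bases before the Asns start (chr6:7693210-7693459, minus) hold a CARE match, in capitals, at positions -23 to -16.
Asns: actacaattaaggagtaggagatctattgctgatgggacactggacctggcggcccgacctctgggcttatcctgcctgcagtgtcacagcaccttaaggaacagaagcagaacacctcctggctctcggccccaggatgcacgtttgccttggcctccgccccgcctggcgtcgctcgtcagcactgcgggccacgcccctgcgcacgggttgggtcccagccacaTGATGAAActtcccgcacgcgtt

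Motifs were searched on both strands of the 250 bases before the RefSeq start of each gene, over 32851 windows in all, and a match is a description of letters only. CARE (TGATGNAA) was found before 3 of the 10 genes, Atf3, Chac1 and Asns, and in 3.45% of all windows. Of these 3, Chac1 and Asns had means below Sham in both groups. Atf3, chosen for its values, was higher in EGR1OV and lower after H/R. CRE (TGACGTCA) was found before Ppp1r15a alone, in 1.55% of windows, and AP-1 (TGANTCA) before Ddit3 alone, in 6.75%. The EGR motif (GCGNGGGCG) was found before 0 of the 10 genes and in 4.7% of windows. The CCAAT box was before 6 of the 10 genes and in 33.9% of windows. The first 40 transcribed bases of RefSeq were found in a GENCODE transcript for 9 of the 10 genes, the exception being Trib3.

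**Figure D3:**
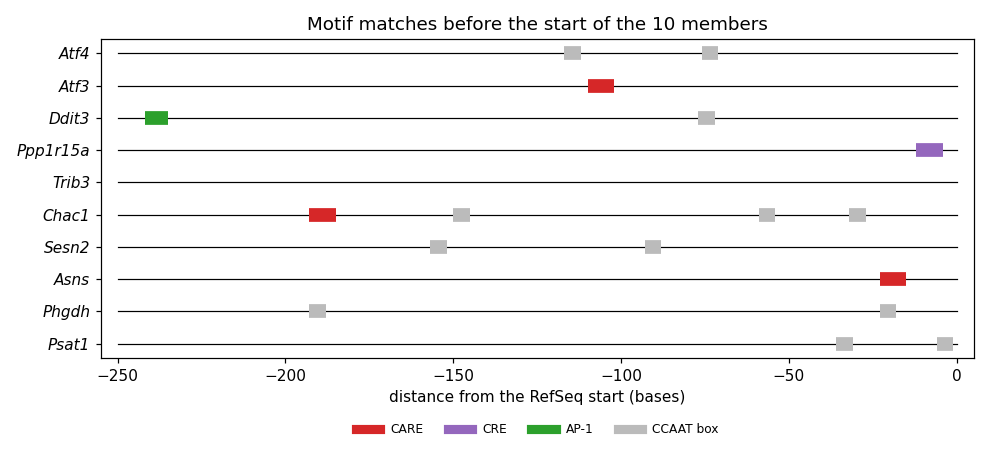
Position of motif matches in the 250 bases before the RefSeq start of each of the 10 genes, as distance from the start in bases on the horizontal axis. Coloured boxes are matches on either strand to CARE, CRE, AP-1 and the CCAAT box, and no EGR match was found. CARE boxes stand before Atf3, Chac1 and Asns, and the Trib3 line is empty. The RefSeq start used for Trib3 was not found in a GENCODE transcript.

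Beyond the 10 genes, 74 other genes of the pathway were listed by role, and 73 passed the filter on low values, all but Fgf21. In EGR1OV 10 were called higher and 5 lower, with a median difference of 0.022, where 9.87% and 6.51% of all genes were called, so these shares lie near the background. After H/R 1 was called higher and 9 lower, with a median of -0.09, where the shares of all genes were 1.6% and 2.65%. EGR1OV against H/R gave 12 higher and 3 lower, with a median of 0.11, beside 11.9% and 6.94%.

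Of the 4 eIF2 alpha kinases, Eif2ak2 (PKR), which is activated by double-stranded RNA and is itself interferon-induced, rose in EGR1OV from 9.87 ± 1.29 to 46.9 ± 2.098 FPKM (SD, n = 3). The ratio was 4.75 and the log2 difference 2.15 ± 0.0819 (SE, adjusted p = 4.02e-08, limma), beside the summed interferon-induced genes given above. In H/R Eif2ak2 was at 8.72 ± 0.668 FPKM and was not called. Eif2ak3 (PERK), the kinase of the endoplasmic reticulum, averaged 25.3 FPKM in Sham, 24.9 under H/R and 20.4 under EGR1OV. Its EGR1OV difference of -0.295 (adjusted p = 0.000315, limma) was under the fold threshold, and after quantile normalization it was called lower at -0.38. Eif2ak1 (HRI), the heme-regulated kinase, averaged 7.08, 6.83 and 7.98 FPKM in Sham, H/R and EGR1OV. Eif2ak4 (GCN2), the amino acid sensor, averaged 4.57, 4.88 and 5.24 FPKM, and neither gene was called. Their EGR1OV differences from Sham, 0.152 and 0.163 (adjusted p = 0.00609 and 0.0125, limma), were under the fold threshold. Among 13 genes of eIF2, its exchange factor eIF2B, the phosphatase and kinase inhibitors, 1 was called higher in EGR1OV, Eif2b2 at 0.40. The share of all genes called higher was 9.87%. After H/R 0 were called, beside 1.6% higher and 2.65% lower of all genes.

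Of 5 other transcription factors of the pathway, 2 were called higher in EGR1OV, beside 9.87% of all genes. Nupr1, a small stress-induced chromatin protein, rose from 27.6 ± 1.19 to 93.7 ± 4.39 FPKM, by 1.73 on the log2 scale (adjusted p = 1.4e-09, limma). It fell after H/R to 20.7 ± 0.485 FPKM, by 0.40 (adjusted p = 0.00091). Cebpb, which pairs with CHOP and Atf4, rose from 2.13 ± 0.668 to 10.8 ± 2.23 FPKM, by 1.92 (adjusted p = 2.22e-05), on 40 to 327 reads per library. Atf5, a factor of the mitochondrial stress response, was lower after H/R by 0.30 (adjusted p = 0.00998), a call lost after median-ratio scaling.

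**Figure D4:**
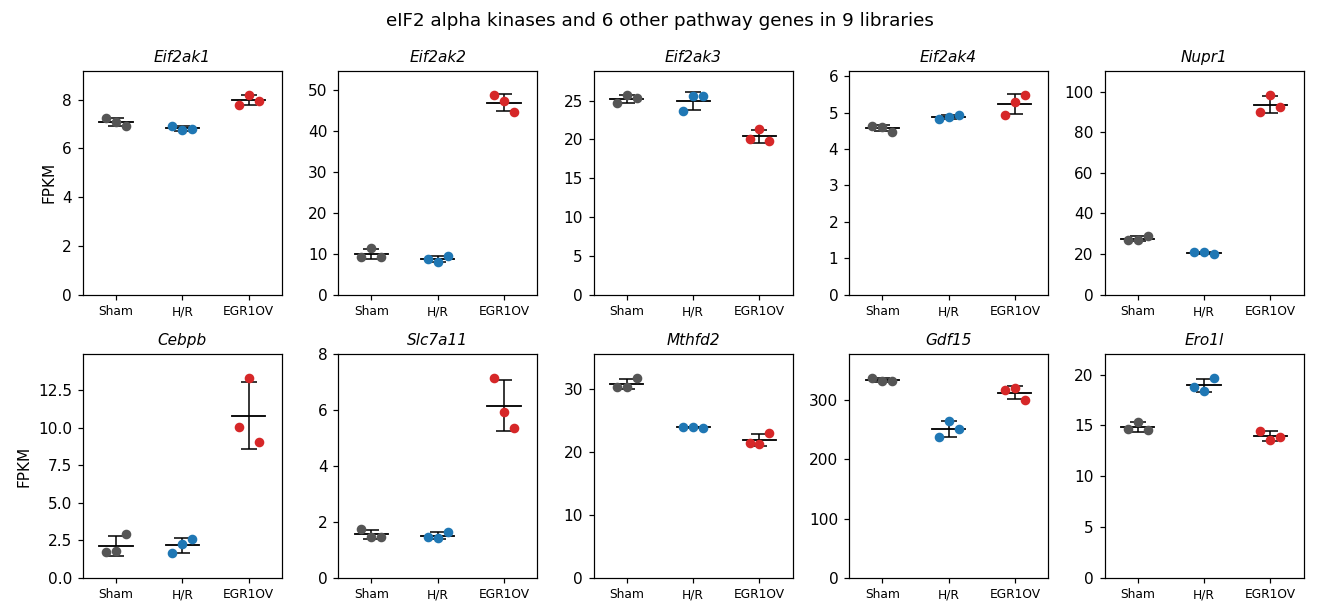
FPKM of the 4 eIF2 alpha kinases and of Nupr1, Cebpb, Slc7a11, Mthfd2, Gdf15 and Ero1l in each of the 9 libraries. Points are libraries, the long bar is the mean and the whiskers are the SD (n = 3), with the vertical axis from 0. Eif2ak2, Nupr1, Cebpb and Slc7a11 stand higher in EGR1OV, Mthfd2 stands lower in both groups than in Sham, and Ero1l is highest in H/R.

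Of 9 amino acid transporters 4 were called higher and 3 lower in EGR1OV, beside 9.87% and 6.51% of all genes. Slc7a11, which imports cystine for glutathione synthesis, rose from 1.55 ± 0.157 to 6.15 ± 0.909 FPKM, by 1.48 (adjusted p = 1.29e-06, limma), and was at 1.51 FPKM in H/R. Its partner chain Slc3a2 rose by 0.55, from 51.4 to 75.5 FPKM, and the glutamine carrier Slc1a5 rose by 0.49. The cationic amino acid carriers Slc7a3 and Slc7a1 fell by 0.49 and 0.46, and Slc38a2, which takes up neutral amino acids, fell by 0.39. After H/R 1 of the 9 was called, Slc7a3, lower by 0.33 (adjusted p = 0.0166, limma), beside 2.65% of all genes. That call was lost without the filter on low values (adjusted p = 0.054, limma).

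Among 9 further enzymes of serine, folate and amino acid metabolism, 1 was called higher and 2 lower in EGR1OV (9.87% and 6.51% of all genes), and 0 higher and 4 lower after H/R (1.6% and 2.65%). Mthfd2, a mitochondrial folate enzyme, averaged 30.8 ± 0.834 FPKM in Sham and fell to 23.9 ± 0.0811 after H/R and to 21.9 ± 0.973 with EGR1OV (SD, n = 3), by 0.35 and 0.48 (adjusted p = 0.000705 and 4.56e-06, limma). Psph, the last enzyme of serine synthesis after Phgdh and Psat1, fell after H/R by 0.35 (adjusted p = 0.0045), so all 3 enzymes of that path were called lower after H/R. Pck2, the mitochondrial PEP carboxykinase, fell after H/R by 0.32. Pycr1, an enzyme of proline synthesis, fell in EGR1OV by 0.49, and Aldh1l2 rose by 0.39, a call lost after both other scalings.

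Of 13 genes for tRNA synthetases and tRNA export, 0 were called in either comparison with Sham. Of all genes 9.87% were called higher and 6.51% lower in EGR1OV, and 1.6% and 2.65% after H/R. After H/R all 13 differences were below 0, with a median of -0.135 where all genes had -0.03. In EGR1OV 7 were above 0, with a median of 0.018 where all genes had 0.017. The share of all genes on each side of 0 was not computed, and these signs were not counted under other scalings. Against H/R 1 of the 13 was called higher in EGR1OV, Aars at 0.52, beside 11.9% of all genes. Of 10 tested stress effectors and secreted factors, 0 were called in EGR1OV against Sham (9.87% higher and 6.51% lower of all genes). In H/R against Sham 1 was called higher and 2 lower (1.6% and 2.65% of all genes). After H/R Gdf15, a secreted stress cytokine, fell from 334 ± 3.09 to 251 ± 13.2 FPKM, by 0.41 (adjusted p = 0.000565, limma), and Eif4ebp1, an inhibitor of translation, fell by 0.30, a call lost after median-ratio scaling. The 1 pathway gene called higher after H/R was Ero1l, an oxidase of the endoplasmic reticulum that also answers to hypoxia, at 14.9 FPKM in Sham and 18.9 in H/R (0.33, adjusted p = 0.00161). Of 10 genes of the Atf6 and Ire1 arms of the unfolded protein response, 1 was called higher in EGR1OV (9.87% of all genes), Sdf2l1 at 0.45. That call was lost after quantile normalization, and 0 were called after H/R (1.6% higher and 2.65% lower of all genes).

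**Figure D5:**
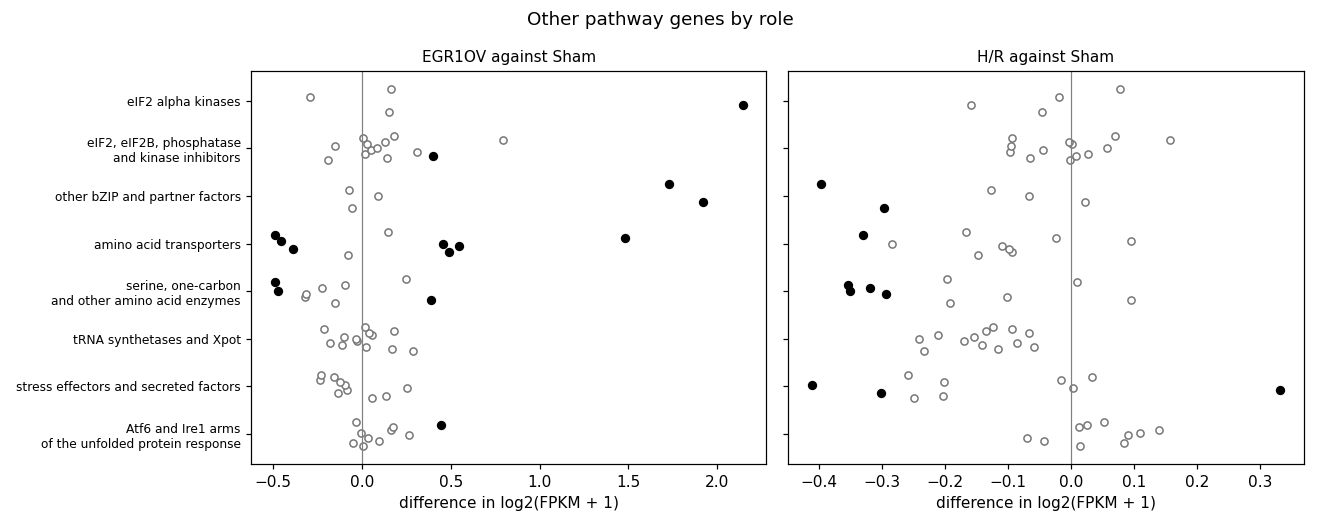
Difference in log2(FPKM + 1) of the 73 tested pathway genes outside the 10, by role, for EGR1OV against Sham and H/R against Sham. Each point is a gene, filled where called, and the 2 horizontal axes differ in scale. In EGR1OV filled points of the transporter row lie on both sides of 0, and in H/R all filled points but Ero1l lie left of 0.

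The 4 largest called differences of pathway genes between EGR1OV and H/R were 2.30 for Eif2ak2, 2.12 for Nupr1, 1.90 for Cebpb and 1.504 for Slc7a11. Slc6a9, a glycine transporter, was higher by 0.74, Slc3a2 by 0.66 and Shmt2 by 0.45, while Slc7a1, Pycr1 and Ero1l were lower, at -0.55, -0.50 and -0.41. Of these calls Shmt2, together with Eif2b2, Eif2b4 and Sdf2l1 (0.39, 0.41 and 0.42), was lost after both other scalings. Eif2b2 was lost after both scalings against Sham as well.

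CARE matches were found before 12 of 56 pathway genes with a RefSeq window, in 12 of their 67 windows, and in 3.45% of all windows. Slc7a11 (chr3:50443614-50443733, minus) and Nupr1 (chr7:126625471-126625590, minus) are shown because both rose in EGR1OV, and Pycr1 (chr11:120643749-120643868, minus) because it fell. The 120 bases before each start are given, with CARE matches in capitals.
Slc7a11: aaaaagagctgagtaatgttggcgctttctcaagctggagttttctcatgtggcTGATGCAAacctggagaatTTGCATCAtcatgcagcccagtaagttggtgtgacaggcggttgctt
Nupr1: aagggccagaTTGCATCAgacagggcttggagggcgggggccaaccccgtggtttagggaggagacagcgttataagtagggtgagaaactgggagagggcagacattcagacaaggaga
Pycr1: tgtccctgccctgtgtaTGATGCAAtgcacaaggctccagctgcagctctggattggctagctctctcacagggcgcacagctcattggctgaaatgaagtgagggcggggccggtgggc
Of 11 tested pathway genes with a match, 2 were called higher and 1 lower in EGR1OV, and of 44 without a match 6 were higher and 3 lower, beside 9.87% and 6.51% of all genes. After H/R the counts were 0 higher and 2 lower of 11, Nupr1 and Pck2, and 0 higher and 5 lower of 44, beside 1.6% and 2.65%. With so few genes, nothing is read from these counts.

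Profiles over the 9 libraries were compared by the root mean square difference of log2(FPKM + 1), each gene centred on its mean, among 7578 genes that averaged 5 FPKM or more and without the 10 genes. For Atf3 and Ddit3 this uses the values that chose them, so it is a description only. The genes closest to Atf3 were AU020206 at 0.0999, Gla (alpha-galactosidase A) at 0.122, Nfkbiz (a nuclear I kappa B protein) at 0.146, Grn (progranulin) at 0.154 and Rnf114 (a ubiquitin ligase) at 0.157. Closest to Ddit3 were Ly6a (a surface antigen) at 0.0976, Hmox1 (heme oxygenase) at 0.114, Car13 (a carbonic anhydrase) at 0.115, Srxn1 (sulfiredoxin) at 0.115 and Ptges2 (a prostaglandin E synthase) at 0.116. AU020206, Gla and Car13 averaged under 5 FPKM in Sham and H/R and passed the level filter through EGR1OV, where they are high. Hmox1 averaged 78.6 FPKM in Sham, 61.6 under H/R and 257 under EGR1OV. Distances within the 10 genes were taken separately. Of the genes not used for the choice, Sesn2 was there nearest to Phgdh at 0.0663, Atf4 to Asns at 0.0772, and Trib3 to Ppp1r15a at 0.254. The profile of Trib3 thus lay farther from its nearest gene of the 10 than these did. The nearest of all genes was not sought for them.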

How the data were processed

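RNA was sequenced from 9 libraries, 3 each from Sham, H/R and EGR1OV TECs. The authors deposited a table of FPKM, a column per library and no pooling. The submitters' processing notes name Bowtie2 2.2.3, HISAT2 2.1.0, TopHat2 and the build mm9 with no role, and the counter is not given in the sources used here. GENCODE M21 held 99.8% of the gene identifiers, 94.6% of them at the same position, so the table's coordinates are GRCm38. In 26 rows a symbol turned into a date was restored from its identifier. Promoter windows were read from RefSeq (GRCm38.p6), matched by symbol for all 10 genes.

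Depth was recovered from the steps of low values with GENCODE exon lengths, and 94.0% of values of 1 to 1000 reads were whole within 0.02 reads. Read numbers cover counting error only. FPKM are not counts, so log2(FPKM + 1) was tested with limma 3.58.1 in R 4.3.3 (lmFit, eBayes with trend, two-sided, Benjamini-Hochberg over all genes), which understates differences of low genes. The thresholds against Sham are those of the study, and the third was chosen for this work. An exact two-sided permutation test of 3 against 3 libraries cannot go below 0.1. The fit was tested on simulated data. Python 3.11.15, numpy 2.4.6, pandas 2.3.3 and matplotlib 3.10.9 were used for the table and figures.

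The genes, lists and tests were chosen with earlier results of these data known. Named genes were the 10 genes, the 4 kinases, Egr1, up to 3 called genes with the largest rise and the largest fall per role and comparison without overlap between groups, and the 5 genes closest to Atf3 and to Ddit3. Alternatives were quantile normalization, median-ratio scaling, a pseudocount of 0.1, no filter, a filter at 5 FPKM, limma without trend, only the 2 groups compared, the replicate block, no fold threshold, a 2-fold threshold and each library left out. Voom on recovered reads was added after seeing the data. Aqp2 and Cd3e of the marker lists were not analysed here.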

Additional observations from a re-analysis of the deposited data

How the results depend on the processing

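Among the 10 genes, the 4 kinases and the named pathway genes, no called difference changed direction under any alternative run. The direction of the other called genes was not followed gene by gene. Of the 10 genes, the differences nearest 0 changed sign: Phgdh and Atf4 in EGR1OV against Sham and Asns in EGR1OV against H/R. Against Sham, EGR1OV gave 2291 called genes, 15 of them in the pathway list, and 1 of the 8 tested stress response genes. The 8-gene count became 2, with Ppp1r15a added, under a pseudocount of 0.1 and under voom. Without 1 library these counts ranged over 2238 to 2373, 13 to 16, and 1 to 2, with 2 reached without Sham replicate 2 or EGR1OV replicate 2. H/R gave 594, 10 and 5, and without 1 library 449 to 579, 9 to 12, and 4 to 5. EGR1OV against H/R gave 2641, 15 and 3, and without 1 library 2583 to 2703, 14 to 16, and 2 to 3. A filter at 5 FPKM left 1315, 372 and 1520 called genes in the 3 comparisons, as fewer genes were tested. Voom called 1001 genes in H/R, and the cause was not tested. With no fold threshold there were 6417 genes, 44 pathway genes and 4 stress response genes in EGR1OV, 1635, 25 and 7 in H/R, and 7135, 53 and 6 between EGR1OV and H/R. At 2-fold the counts were 484, 4 and 0, then 11, 0 and 0, then 489, 4 and 1. With the replicate number as a block the counts were 2309, 15 and 1, then 516, 10 and 4, then 2654, 15 and 3, and of the 8 genes only Chac1 after H/R lost its call (adjusted p = 0.0509, limma). The 9 correlations of same-numbered libraries, in deviations from the group means, ran from -0.195 to 0.26, and 2 exceeded 0.1. The labels do not say what a number marks, so it was not treated as a pairing. The difference from Sham of Atf3, on 121 to 518 reads, has a standard error of 0.081 against 0.025 for Atf4.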
